A study of Mus musculus with 6 samples.

Results

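The cytosolic heat shock chaperones described here are 10 genes that were chosen by name: the HSP70 chaperones Hspa8, Hspa1a and Hspa1b, the HSP110 exchange factor Hsph1, the HSP90 chaperones Hsp90ab1 and Hsp90aa1, the J-domain co-chaperones Dnajb1 and Dnaja1, the HSP90 co-chaperone Fkbp4, and Hsf1, the factor that induces many of them. All 10 were found among 29072 genes in the table. The list was drawn up with the difference between the groups already known, so that difference is given for these genes as a description and supports nothing. Within a gene, the transcript row was chosen by RefSeq origin and then by the highest mean over the 6 libraries.

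The RNA came from interscapular brown adipose tissue, a fat depot specialised in making heat, of C57BL/6J mice. Of the 6 libraries, 3 came from mice labelled UCP1(-/-) (knockout) and 3 from wildtype mice of the same strain. The labels state no age, sex or housing temperature. The labels name no separate animals, so the p-values reflect only how these libraries vary, and that variation may be technical.

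Heat shock chaperones bind unfolded stretches of other proteins and release them in cycles driven by ATP. HSP70 works with J-domain proteins, which bring it substrates and stimulate its ATPase, and with HSP110, which exchanges its nucleotide. HSP90 takes over clients such as kinases and steroid receptors. HSF1 is held inactive by chaperones in unstressed cells, and when unfolded proteins engage these, it trimerises and binds heat shock elements, inverted repeats of a GAA unit, before chaperone genes. Brown fat makes heat by uncoupling respiration through UCP1, and the temperature of a tissue is a classical input to this pathway.

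Since HSF1 acts through such elements, the promoters of the chaperones were searched for them. RefSeq promoter sequences of mouse build GRCm38.p6, from 250 bases before to 50 bases after a start site, were at hand for 6 of the 10 genes (Hsph1, Hspa1a, Hspa1b, Dnajb1, Dnaja1 and Fkbp4). The search used the inverted pairs GAANNTTC and TTCNNGAA, which read the same on both strands and may overlap each other. A pair was found in 5 of these 6 genes, Dnajb1 being the exception, and in 17.0% of all 27025 genes with a promoter in the table (15.1% of 32851 promoter windows). A gene counted if any of its windows held a pair. For Dnaja1 the windows starting at chr4:40722672 and chr4:40722680 held none. The windows of Hspa1a and Hspa1b are near-copies, so their matches are not separate instances. The letters below run 5′ to 3′ on the strand of the gene, with each matched pair in capitals, and end before the start site. They are shown because these are the genes whose levels are described next. The Hsph1 stretch is chr5:149636336-149636395 (minus strand), with its pair 54 to 47 bases before the start site of that window. The Hspa1a stretch is chr17:34972227-34972286 and the Hspa1b stretch chr17:34959309-34959368 (both minus strand). The Dnaja1 stretch is chr4:40722318-40722377 (plus strand), and the Fkbp4 stretch chr6:128438774-128438833 (minus strand).
Hsph1: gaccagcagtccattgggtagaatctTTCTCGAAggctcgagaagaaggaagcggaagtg
Hspa1a: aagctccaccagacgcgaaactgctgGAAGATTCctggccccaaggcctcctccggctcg
Hspa1b: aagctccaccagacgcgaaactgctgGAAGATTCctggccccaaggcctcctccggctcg
Dnaja1: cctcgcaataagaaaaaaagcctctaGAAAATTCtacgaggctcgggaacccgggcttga
Fkbp4: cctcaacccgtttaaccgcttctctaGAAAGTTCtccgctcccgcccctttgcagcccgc

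The longer form with 3 alternating units, GAANNTTCNNGAA or TTCNNGAANNTTC on either strand, was found in Hsph1 alone among the 6 genes and in 0.662% of all genes with a promoter. It lies 16 to 28 bases after the same start site, within chr5:149636284-149636309 (minus strand), and contains a pair of each kind that overlap.
Hsph1: tgctgcagaTTCTGGAAAGTTCtcct
The promoter windows of Hspa1a and Hspa1b are identical at 296 of 300 bases, and the genes themselves are near-identical neighbours. Their separate values are therefore uncertain, since reads that fit both can be split between them. A match is a description of letters and not a site of binding. The build behind the deposited values is not given in the labels, so these coordinates belong to the RefSeq table only.

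The libraries were of like depth, with 15800000 to 18100000 reads implied by the spacing of low values. Ucp1, the targeted gene, stood at 372 to 389 RPKM (reads scaled to transcript length and library depth) in the knockout libraries and at 1714 to 3151 RPKM in the wildtype libraries, which is the direction of the labels. The 12 brown adipocyte markers, Ucp1 among them, summed to 14400 to 15200 RPKM in knockout and to 15900 to 17100 RPKM in wildtype. In contrast, 5 liver markers together reached 0.354 to 1.26 RPKM over the 6 libraries. Skeletal muscle RNA differed between the groups. In the knockout libraries 20 muscle markers summed to 1790 to 2050 RPKM, against 255, 294 and 59.7 RPKM in wildtype replicates 1, 2 and 3, and with no marker at 0 in every library. Acta1, the actin of skeletal muscle, stood at 342 to 425 RPKM in knockout and at 46.5, 57.0 and 8.54 RPKM in wildtype replicates 1, 2 and 3. Wildtype replicate 3 thus stood apart by its low muscle RNA, and values are given below with and without it. In whole tissue, fewer cells of a type and less RNA per cell cannot be told apart. Testing of 11562 genes by limma called 804 higher and 83 lower in knockout at an adjusted p of 0.05. After median-of-ratios scaling of the libraries the counts were 472 and 175. The factors that divided the values were 1.034 to 1.053 in knockout and 0.952 to 0.975 in wildtype. This scaling therefore moves every comparison towards lower in knockout.

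Levels of the chaperones were lower in knockout brown fat for most of the 10 genes, and wildtype replicate 3 held the highest level of 9 of them. In 7 genes every knockout library lay below every wildtype library, a pattern that 5.11% of all tested genes showed. In the fit over all genes, 3 of the 10 passed an adjusted p of 0.05 as lower in knockout (Hsph1, Hspa8 and Hsp90ab1) and none as higher. Over all tested genes 0.718% were called lower and 6.95% higher. Because the list was made with this contrast known, nothing is read from these counts. The count of 3 dropped to 0 when any 1 of the knockout libraries was left out. Leaving out wildtype replicate 1 gave 3 again, but with Hspa1a and Hspa1b in place of Hspa8 and Hsp90ab1. All 10 passed the filter of a mean of 1 RPKM in either group, but Hspa1a and Hspa1b did so only through their wildtype level. The median log2 change, knockout minus wildtype, was -0.55 over the 10 genes and 0.075 over all tested genes.

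**Figure D1:**
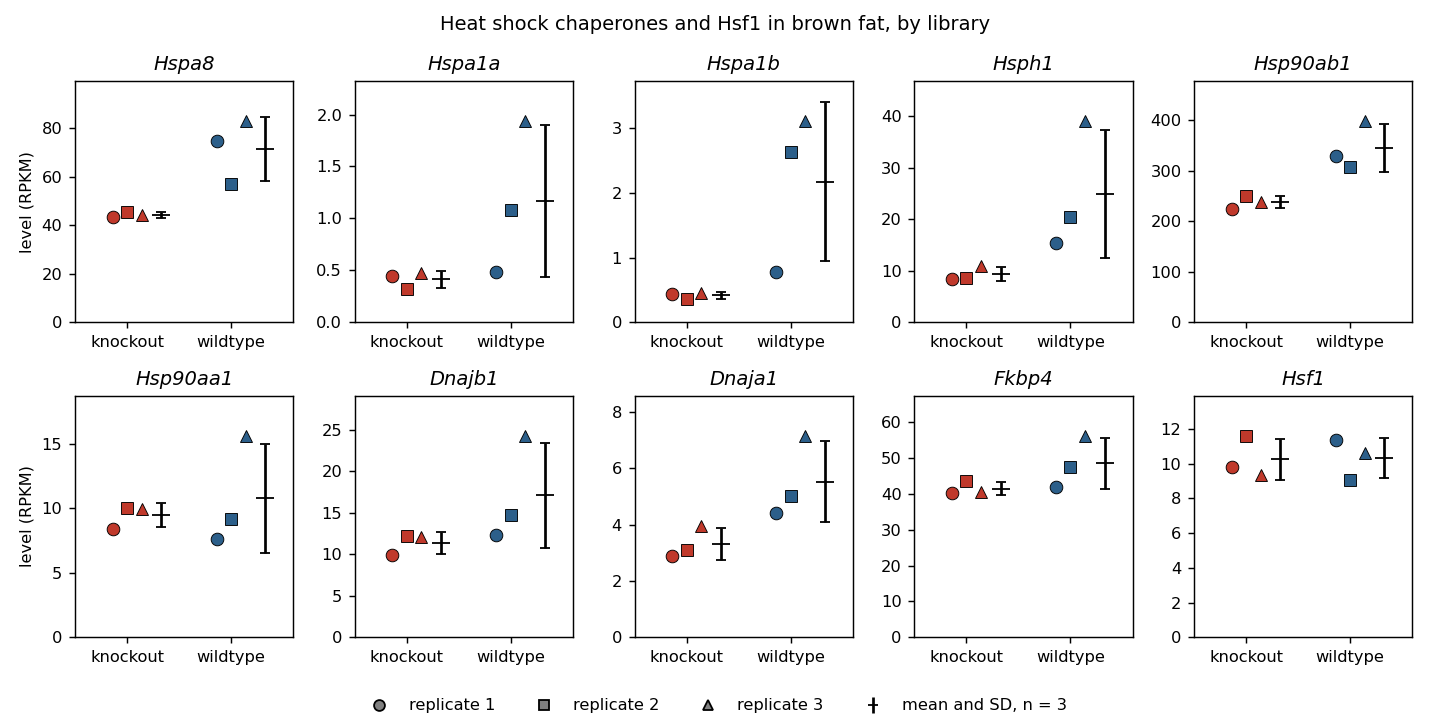
Level of each of the 10 genes (y axis, RPKM from 0) in the knockout and wildtype libraries (x axis), with 1 symbol per library and the mean and SD (n = 3) beside each group. Wildtype replicate 3 (triangle) is the highest library in 9 panels, and in 7 panels the knockout libraries lie below all wildtype libraries.

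Of Hspa8, Hspa1a and Hspa1b, the HSP70 chaperones described here, the constitutive cytosolic Hspa8 was by far the most abundant per length of transcript. Its level was 43.3, 45.5 and 44.2 RPKM in knockout replicates 1, 2 and 3, and 74.7, 57.2 and 82.9 RPKM in wildtype replicates 1, 2 and 3. The knockout libraries lay close together (44.3 ± 1.11 RPKM, SD, n = 3) and below all wildtype libraries (71.6 ± 13.1 RPKM, SD, n = 3). Hspa8 was 1.62-fold higher in wildtype, and 1.49-fold higher with wildtype replicate 3 left out. The log2 change was -0.66 (SE 0.13) and without that library -0.55 (SE 0.12). Of 23 transcript rows for Hspa8, all had a lower mean in knockout and 22 had no overlap between the groups, although these rows share reads.

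The stress-inducible HSP70 genes Hspa1a and Hspa1b were barely present in knockout brown fat. Hspa1b stood at 0.444, 0.361 and 0.454 RPKM in the knockout libraries, and at 0.784, 2.63 and 3.11 RPKM in wildtype replicates 1, 2 and 3. Hspa1a stood at 0.446, 0.317 and 0.476 RPKM in the knockout libraries and at 0.481, 1.08 and 1.93 RPKM in the wildtype libraries. Neither gene overlapped between the groups, but wildtype replicate 1 lay only just above the knockout libraries for Hspa1a. The wildtype mean was 5.18-fold higher for Hspa1b and 2.82-fold higher for Hspa1a, and without wildtype replicate 3 it was 4.07-fold and 1.89-fold higher. These are ratios of means, whereas the log2 changes after adding 1 RPKM, -1.07 (SE 0.27) and -0.56 (SE 0.22), understate changes at such low levels. Few reads stand behind these values: an Ensembl row of Hspa1a corresponds to about 14 to 24 reads in knockout libraries and 22 to 89 in wildtype libraries.

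Hsph1, the HSP110 protein that exchanges the nucleotide of HSP70 and holds unfolded clients, showed the largest change of the 10 genes on the log2(RPKM + 1) scale. That rank depends on the scale: with 0.1 RPKM added in place of 1 the log2 change was -1.31 for Hsph1 and -1.93 for Hspa1b, with rows summed it was -1.31 and -1.58, and by ratio of means both Hspa1a and Hspa1b exceed Hsph1. Its level was 8.38, 8.71 and 10.9 RPKM in knockout replicates 1, 2 and 3, and 15.5, 20.5 and 39.0 RPKM in wildtype replicates 1, 2 and 3. No knockout library reached the lowest wildtype library, and wildtype replicate 3 held 2.52 times the level of wildtype replicate 1. The means were 9.32 ± 1.35 and 24.99 ± 12.4 RPKM (SD, n = 3 each), a 2.68-fold higher wildtype level that was 1.93-fold without wildtype replicate 3. The log2 change was -1.24 (SE 0.28) and, without that library, -0.87 (SE 0.14). This was the fifth largest fall on the log2 scale among the 83 genes called lower. An Ensembl row of Hsph1 corresponds to about 398 to 583 reads in knockout and 749 to 1883 in wildtype libraries, so counting error is small here. Hsph1 also holds the 3-unit element printed above, a match of letters whose part in this change was not tested. No promoter was at hand for Hspa8 and Hsp90ab1, which were called lower as well.

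The HSP90 genes were at very different levels per length of transcript. Hsp90ab1, the constitutive cytosolic HSP90, stood at 225, 249 and 238 RPKM in the knockout libraries and at 329, 307 and 397 RPKM in wildtype replicates 1, 2 and 3. Its groups did not overlap, and the wildtype mean was 1.45-fold higher, or 1.34-fold without wildtype replicate 3 (log2 change -0.53, SE 0.11, and -0.42, SE 0.09). Hsp90aa1, the stress-inducible HSP90, stood at 8.39, 10.03 and 9.92 RPKM in the knockout libraries and at 7.58, 9.14 and 15.6 RPKM in the wildtype libraries. Its groups overlapped, since wildtype replicate 1 was the lowest and wildtype replicate 3 the highest of the 6 libraries. The log2 change of Hsp90aa1 was -0.12 (SE 0.21), and it became 0.16 (SE 0.11) without wildtype replicate 3. Both genes have processed copies elsewhere in the genome, and how the authors counted reads that fit several places is not given.

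Levels within a library were also set against each other, which removes differences in library scaling. Hsp90aa1 amounted to 3.73%, 4.03% and 4.16% of Hsp90ab1 in the knockout libraries and to 2.30%, 2.98% and 3.92% in the wildtype libraries. The groups overlapped, because wildtype replicate 3 exceeded knockout replicate 1. Hspa1a and Hspa1b together amounted to 1.49% to 2.11% of Hspa8 in the knockout libraries. In wildtype replicates 2 and 3 they reached 6.49% and 6.08% of Hspa8, while wildtype replicate 1, with 1.69%, lay within the knockout range. The Hsph1 level was 19.4%, 19.1% and 24.6% of that of Hspa8 in the knockout libraries and 20.7%, 35.8% and 47.1% in wildtype replicates 1, 2 and 3. In wildtype replicate 1, therefore, Hspa8 and Hsp90ab1 were above the knockout libraries, while each of these ratios lay within or below the knockout range.

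**Figure D2:**
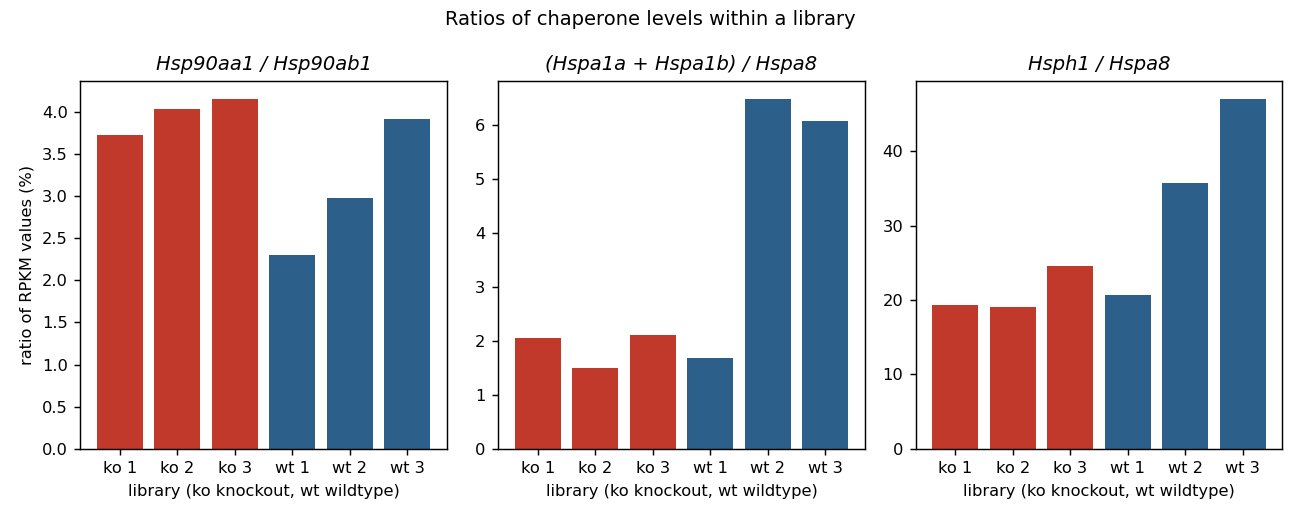
Ratio of RPKM values within each library (y axis, percent, from 0) for Hsp90aa1 to Hsp90ab1, Hspa1a plus Hspa1b to Hspa8, and Hsph1 to Hspa8, with 1 bar per library. Wildtype replicate 1 sits with the knockout libraries for both ratios to Hspa8 (1.69% and 20.7%), and wildtype replicates 2 and 3 lie above them.

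The J-domain proteins Dnajb1 and Dnaja1, which deliver clients to HSP70, followed the same order of libraries as Hsph1 within wildtype. Dnajb1, the classical heat-induced HSP40, stood at 9.87, 12.2 and 12.0 RPKM in the knockout libraries and at 12.3, 14.7 and 24.2 RPKM in wildtype replicates 1, 2 and 3. Its groups did not overlap, but wildtype replicate 1 and knockout replicate 2 differed by little. The wildtype mean of Dnajb1 was 1.5-fold higher and, without wildtype replicate 3, 1.19-fold higher (log2 change -0.5, SE 0.21, and -0.23, SE 0.12). Dnaja1, a farnesylated J-domain protein, stood at 2.88, 3.11 and 3.96 RPKM in the knockout libraries and at 4.41, 5.03 and 7.15 RPKM in the wildtype libraries. Its wildtype mean was 1.67-fold higher, and 1.42-fold higher without wildtype replicate 3 (log2 change -0.58, SE 0.16, and -0.41, SE 0.12). The 16 rows of Dnaja1 disagree in size, with the knockout mean at 0.408 to 0.967 times the wildtype mean, yet all 16 were lower in knockout.

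Fkbp4, an immunophilin that binds HSP90 in steroid receptor complexes, differed less. It stood at 40.3, 43.6 and 40.6 RPKM in the knockout libraries and at 42.1, 47.4 and 56.1 RPKM in wildtype replicates 1, 2 and 3, so the groups overlapped. The log2 change was -0.21 (SE 0.11), or -0.10 (SE 0.09) without wildtype replicate 3. Hsf1 itself stood at 9.84, 11.6 and 9.34 RPKM in the knockout libraries and at 11.3, 9.03 and 10.6 RPKM in the wildtype libraries. Its groups overlapped throughout, with means of 10.3 ± 1.18 RPKM in each group (SD, n = 3) and a log2 change of -0.01 (SE 0.11). The protein is regulated after translation, by release from chaperones and by phosphorylation, and RNA does not measure its activity.

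**Figure D3:**
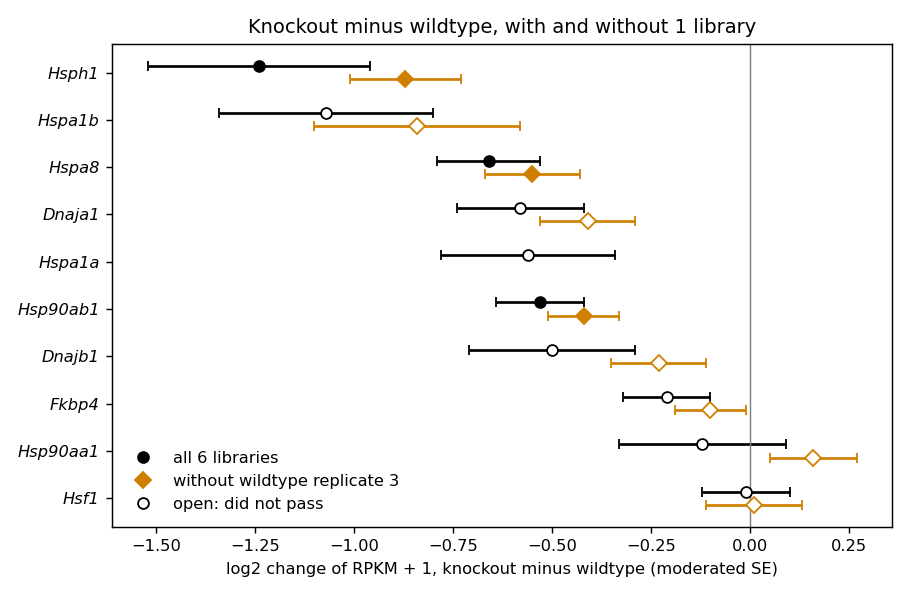
Log2 change of RPKM + 1, knockout minus wildtype (x axis), with its moderated standard error, for each of the 10 genes (y axis) with all 6 libraries (circles) and without wildtype replicate 3 (diamonds), where filled symbols passed an adjusted p of 0.05 over all genes. Hsph1 moved from -1.24 to -0.87 and Hsp90aa1 from -0.12 to 0.16; Hspa1a has no second value because it then fell under the filter.

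Much of the spread lay within the wildtype group. The SD was a larger share of the mean in wildtype than in knockout for 9 of the 10 genes, Hsf1 being the exception. In wildtype the SD was 62.7% of the mean for Hspa1a, 56.4% for Hspa1b and 49.7% for Hsph1, against a median of 9.89% over all tested genes. In knockout these shares were 20.4%, 12.2% and 14.5%, against a median of 7.84%. For 5 genes (Hsph1, Hspa1a, Hspa1b, Dnajb1 and Dnaja1) the order from the top was wildtype replicate 3, 2 and 1. Wildtype replicate 3 was the highest library of 12.8% of all tested genes. It was highest with wildtype replicate 2 next in 2.01% of all tested genes and in 6 of the 10. Muscle RNA was lowest in wildtype replicate 3 and highest in the knockout libraries, opposite to most of the 10 genes. Between wildtype replicates 1 and 2 it was not opposite, as the summed markers and the 5 genes ordered 3, 2 and 1 were all higher in replicate 2. The part of muscle RNA in the chaperone levels was not tested. With wildtype replicate 3 left out, 8 of the 10 genes had a lower mean in knockout. Nothing is read from that count, because the list was made with this contrast known. Muscle markers summed to 255 and 294 RPKM in the remaining wildtype libraries, against 1790 to 2050 RPKM in knockout, so the groups differed in muscle RNA there as well.

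Genes outside the list whose profile over the 6 libraries came nearest to that of Hsph1 were P4ha1, Svip, Chordc1, Mt2 and Per2. Likeness was the root-mean-square difference between log2(RPKM + 1) profiles, each centred on its own mean, and 6642 genes averaging 5 RPKM or more were compared. It was 0.30 for P4ha1, a prolyl hydroxylase of collagen, and 0.39 for Chordc1, an HSP90 co-chaperone. For comparison, it was 0.26 for Hspa1b and 0.75 for Hsf1. P4ha1 stood at 4.86, 5.67 and 6.09 RPKM in the knockout libraries and at 6.54, 8.17 and 14.8 RPKM in wildtype replicates 1, 2 and 3. P4ha1 and Chordc1 shared with Hsph1 the same order of all 6 libraries. Svip, a small protein that binds the VCP ATPase (0.36), the metallothionein Mt2 (0.40) and the clock repressor Per2 (0.43) shared the separation of the groups, but wildtype replicate 3 was not far above wildtype replicate 1. The level of Svip in wildtype replicate 3 was 1.17 times that in wildtype replicate 1, and it was 1.15 times for Mt2 and 1.07 times for Per2, against 2.26 times for P4ha1. Mt2 was uneven in another way, with 82.5, 117 and 94.5 RPKM in wildtype replicates 1, 2 and 3. The points share their libraries, and the likeness is a description.

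**Figure D4:**
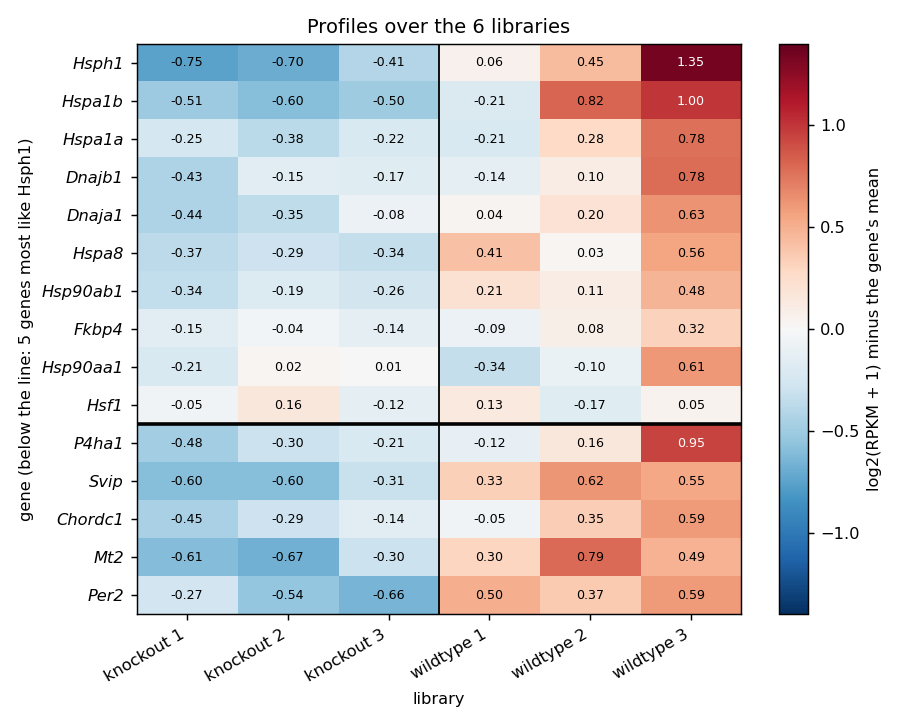
Log2(RPKM + 1) minus the mean of each gene (colour scale and printed values) in each library (x axis) for the 10 genes and, below the line, the 5 genes most like Hsph1 (y axis). Hsph1 runs from its lowest values in knockout to its highest in wildtype replicate 3, P4ha1 and Chordc1 share that order, and Hsf1 is nearly flat.

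Other genes of the pathway were taken from lists, with 63 tested genes in 7 lists of mostly cytosolic and nuclear factors. Of these 63 genes 2 were called higher in knockout and none lower, with a median log2 change of 0.01. Over all tested genes 6.95% were called higher and 0.718% lower, so these counts of calls do not stand above the background. In 9 of the 63 every knockout library lay below every wildtype library, against 5.11% of all tested genes. The highest library was wildtype replicate 3 for 20 of the 63, against 12.8% of all tested genes. None of 20 HSP90 co-chaperones passed with all 6 libraries (median log2 change 0.02). Without wildtype replicate 3, Fkbp5, picked after its values were seen, passed as lower in knockout. Its log2 change was then -0.6 (SE 0.12), against -0.33 (SE 0.21) with all 6 libraries. Wildtype replicate 3, at 5.63 RPKM, was the lowest library for Fkbp5. Chordc1, the co-chaperone with the smallest p, stood at 13.99, 15.7 and 17.5 RPKM in the knockout libraries and at 18.7, 25.1 and 29.9 RPKM in wildtype replicates 1, 2 and 3 (log2 change -0.59, SE 0.16, limma adjusted p = 0.0584). Its groups did not overlap. Chordc1 passed as lower after median-of-ratios scaling (limma adjusted p = 0.0426), with a replicate block and without wildtype replicate 1. Stip1, which links HSP70 to HSP90, and Ahsa1, which stimulates the HSP90 ATPase, were picked after their values were seen. In knockout and wildtype, Stip1 stood at 20.1 ± 0.898 and 28.7 ± 6.33 RPKM, and Ahsa1 at 38.9 ± 2.97 and 50.1 ± 7.54 RPKM (SD, n = 3 each, limma adjusted p = 0.0754 and 0.102).

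Of 16 heat-induced targets of HSF1 outside the list of 10, none passed and the median log2 change was -0.14. They share Chordc1, Stip1, Ahsa1, Cacybp and Ptges3 with the co-chaperones, and Hspa4l, Dnajb4 and Tcp1 with other cytosolic lists. They also hold the mitochondrial Hspd1 and Hspe1. All 16 are among the 63 genes above, so the counts that follow are part of the counts for those. Wildtype replicate 3 was the highest library of 12 of these 16 genes, against 12.8% of all tested genes. In 5 of the 16 every knockout library lay below every wildtype library, against 5.11% of all tested genes. None of 8 subunits of the CCT chaperonin, which folds actin and tubulin, passed either. Cct6a had the smallest p of these, with 47.0 ± 2.81 RPKM in knockout against 55.4 ± 2.72 RPKM in wildtype (SD, n = 3 each, limma adjusted p = 0.106). After median-of-ratios scaling Cct6a passed as lower (log2 change -0.34, limma adjusted p = 0.0416). None of 3 tested HSF family genes and HSF-binding proteins passed, with Hsf2 at 4.11 ± 0.533 and 3.52 ± 0.370 RPKM (SD, n = 3 each, limma adjusted p = 0.355). None of 6 BAG and related exchange factors passed, with Bag4 at 9.71 ± 1.13 and 7.60 ± 0.792 RPKM (SD, n = 3 each, limma adjusted p = 0.109).

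Among relatives of the HSP70 and J-domain proteins none was called lower in knockout. Of 7 relatives of HSP70 and HSP110, Hspa12a, a distant HSP70 relative, rose in knockout to 3.8 ± 0.278 RPKM, from 2.51 ± 0.425 RPKM in wildtype (n = 3 each, SD, log2 change 0.46, limma adjusted p = 0.0361), and 6 did not pass. That call was lost in 8 of 13 alternatives, among them median-of-ratios scaling and the fit without wildtype replicate 3. Of 11 J-domain proteins, Dnajb5 rose in knockout to 5.36 ± 0.707 RPKM, from 2.90 ± 0.658 RPKM in wildtype (n = 3 each, SD, log2 change 0.71, limma adjusted p = 0.0147), and 10 did not pass. The call on Dnajb5 was lost without knockout replicate 1 or knockout replicate 2. The summed muscle markers were higher in every knockout library as well, and their part in these rises was not tested.

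The small heat shock proteins, which hold unfolded proteins without ATP, were mostly higher in knockout. Of 7 tested genes of this group 5 rose, 1 fell and 1 did not pass, with a median log2 change of 0.74, where 6.95% of all tested genes were called higher and 0.718% lower. Hspb6 rose from 11.5, 11.8 and 8.91 RPKM in the wildtype libraries to 39.6, 34.1 and 30.9 RPKM in the knockout libraries (log2 change 1.61, limma adjusted p = 0.000404). From wildtype to knockout Hspb7 rose from 0.785 ± 0.624 to 5.73 ± 1.82 RPKM and Hspb2 from 0.661 ± 0.00217 to 1.69 ± 0.307 RPKM (SD, n = 3 each, limma adjusted p = 0.00305 and 0.00636). Hspb7 and Hspb2 passed the filter on low values only through their knockout level, so they could be tested only because they are high there. The genes that rose are abundant in muscle, and the summed muscle markers were also higher in knockout, at 1790 to 2050 RPKM against 59.7 to 294 RPKM. Within wildtype the markers were lowest in replicate 3, as were Hspb6, Hspb7 and Cryab. Hspb8 (26.6, 41.0 and 38.5 RPKM in wildtype replicates 1, 2 and 3) and Hspb2 (0.658, 0.662 and 0.661 RPKM) were not. Hspb8 and Cryab are named after their values were seen. The part of muscle RNA in these rises was not tested. Hspb1, singled out after its value was seen as the 1 member that fell, stood at 12.0 ± 1.69 RPKM in wildtype and at 8.37 ± 0.651 RPKM in knockout (n = 3 each, SD, log2 change -0.47, limma adjusted p = 0.0347). Bag3, an exchange factor that pairs HSP70 with small heat shock proteins, was also picked after its values were seen. It stood at 30.3 ± 1.45 and 28.4 ± 7.83 RPKM in knockout and wildtype, and its highest library was again wildtype replicate 3 at 37.1 RPKM.

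Chaperones of other compartments did not pass. Of 15 tested chaperones of the endoplasmic reticulum and mitochondria none was called, with a median log2 change of 0.05. Hspe1, the mitochondrial HSP10, had the smallest p, with 31.2 ± 2.93 RPKM in knockout against 34.7 ± 0.663 RPKM in wildtype (SD, n = 3 each, limma adjusted p = 0.296). The cold-inducible RNA-binding proteins, whose RNAs increase in mild cooling of cells, were Cirbp and Rbm3. Cirbp stood at 6.66, 6.71 and 7.90 RPKM in the knockout libraries and at 5.85, 4.02 and 4.95 RPKM in wildtype replicates 1, 2 and 3. Its groups did not overlap (log2 change 0.45, SE 0.12), but it did not pass (limma adjusted p = 0.0614). How many of all tested genes lay wholly higher in knockout is not given here, so nothing is read from that separation. Rbm3 stood at 3.32 ± 0.264 and 3.24 ± 0.511 RPKM (SD, n = 3 each, limma adjusted p = 0.893). Of 14 tested immediate early genes, which respond fast to handling and many other stimuli, none passed. Among the wildtype libraries replicate 1 had the highest sum of this list, at 235 RPKM against 131 and 138 RPKM in replicates 2 and 3. The knockout libraries summed to 195 to 221 RPKM, so wildtype replicates 2 and 3 were the lowest of the 6 libraries. Nr4a1 alone made up 84.0 of the 235 RPKM, and the list was not uniform. Wildtype replicate 3 was the highest library of 4 of its 18 genes, against 12.8% of all tested genes. These were Jun, Jund, Ier3 and Klf4, named after their values were seen. The transcription factors Egr1 and Nr4a1 were picked after their values were seen. They stood at 10.06 and 84.0 RPKM in wildtype replicate 1, at 1.76 and 20.1 RPKM in replicate 2, and at 1.201 and 19.6 RPKM in replicate 3. In knockout replicates 1, 2 and 3 Egr1 stood at 2.78, 3.03 and 2.58 RPKM and Nr4a1 at 68.7, 42.0 and 60.8 RPKM. Wildtype replicate 1 was also the wildtype library with the lowest Hsph1, Hspa1a and Hspa1b, and the part of these genes in that was not tested. Dusp1, a phosphatase of MAP kinases, had 44.9 ± 8.38 RPKM in knockout against 27.0 ± 8.71 RPKM in wildtype (SD, n = 3 each, limma adjusted p = 0.0776).

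**Figure D5:**
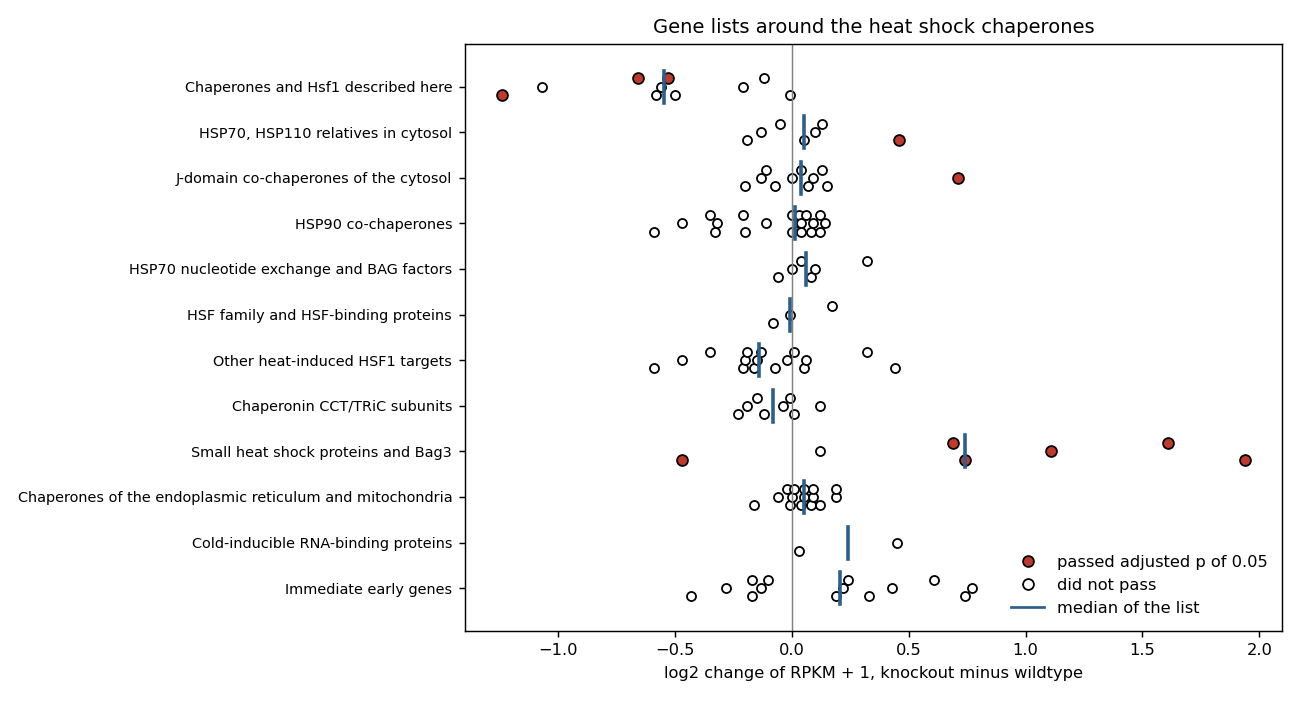
Log2 change of RPKM + 1, knockout minus wildtype (x axis), of the tested genes of each list (y axis), with filled points for genes that passed an adjusted p of 0.05 and a bar at the median of the list. The chaperones described here lie left of 0 with a median of -0.55, the small heat shock proteins mostly right of it with a median of 0.74, and chaperones of other compartments around 0 with a median of 0.05.

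Over all 11 lists, without repeats, 8 of 99 tested genes outside the list of 10 were called, 7 higher and 1 lower, which is near the shares over all tested genes (6.95% higher and 0.718% lower). That count was 3 without knockout replicate 1, 4 without knockout replicate 2, 4 without knockout replicate 3 and 13 without wildtype replicate 1. Among markers of other cell types, 1 of 12 tested macrophage markers was called higher. Macrophage markers summed to 81.2 to 111 RPKM in knockout and 51.0 to 80.0 RPKM in wildtype without overlap, their median log2 change was 0.40, and 1 of 15 had a lower mean in knockout. Their part in the chaperone levels was not tested. None of 10 endothelial markers was called, and none of 4 tested blood markers was called.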

How the data were processed

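The authors deposited 1 table of RPKM values, written with decimal commas, for 168326 transcript rows in 6 libraries. The unit is not in the header and was inferred: of low values multiplied by transcript length, 96.0% to 96.2% per library were whole multiples of a step within a tolerance of 0.1 reads. Libraries were TruSeq libraries of total RNA, per the labels' protocols, and CASAVA and bcl2fastq are named in the submitters' processing notes. The aligner, the genome build and the use of strand are not given in the sources here, so reads of overlapping or near-identical genes cannot be separated.

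Rows without a gene identifier (13.8%) were left out and each gene kept 1 row, RefSeq rows first and then the row with the highest mean over the 6 libraries. Values were taken to log2(RPKM + 1). Genes averaging 1 RPKM or more in 1 of the groups or both were tested with limma 3.58.1 in R 4.3.3, with an intensity trend, genotype as the only factor and Benjamini-Hochberg adjustment over all 11562 tested genes. Errors are SD over 3 libraries or moderated standard errors, and p-values are two-sided. The fit was tested on simulated data.

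The 10 genes and the lists were chosen with earlier results of these data known. From each list the text names up to 3 called genes with the smallest adjusted p, or the gene with the smallest p where none was called, besides both cold-inducible genes, Ucp1, Acta1 and the 5 genes nearest to Hsph1. Any other gene is marked as chosen after its values were seen. Alternatives covered scaling, filter, pseudocount, row choice, the trend, a replicate block and each library left out.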

Additional observations from a re-analysis of the deposited data

How the results depend on the processing

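Of 129 values of the 10 genes under 13 alternatives, 5 had the other sign, all of Hsf1 or of Hsp90aa1, neither of which was called. The count of the 10 genes called was 3, and it was 1 with no filter on low values, 5 with the rows of a gene summed, 5 with a replicate block, and 0 to 3 with each library left out in turn. It was 4 with median-of-ratios scaling, where Dnaja1 joined, 4 with a pseudocount of 0.1, and 4 with the highest row of any kind. The call was lost without any 1 of the knockout libraries for Hsph1, Hspa8 and Hsp90ab1, and with no filter for Hsph1 and Hsp90ab1; the cause was not tested. The 8 pathway genes called became 11 with median-of-ratios scaling, 5 with no filter, and 3 to 13 with each library left out. All genes called were 887, and 455 to 849 with each library left out. Over all tested genes, same-numbered libraries deviated together little (correlations of deviations 0.092, 0.038 and -0.018). Such correlations cannot settle whether the numbers pair the samples. With a replicate block 775 genes were called. The SE was then 0.17 against 0.28 for Hsph1 and 0.09 against 0.16 for Dnaja1, but 0.12 against 0.11 for Hsf1. Depth limits the values of Hspa1a and Hspa1b, which rest on few reads.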
